A study of Mus musculus with 6 samples.

Results

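The Kupffer cells described here are the cells of a mouse liver single-cell RNA sequencing series in which UMIs (unique molecular identifiers, 1 per captured transcript) of Timd4, Marco or Cd163 were seen beside Kupffer cell transcripts. They were chosen by the counts in each cell. A cell needed fewer than 5000 genes and under 5% mitochondrial UMIs, at least 3 UMIs of Clec4f, Vsig4 and Cd5l together, at least 5 of C1qa, C1qb and C1qc together, at most 1 of the endothelial genes Kdr and Ptprb, and at least 1 of Timd4, Marco and Cd163. There were 1062 such cells, called gated cells here, among 27544 cells within the gene and mitochondrial limits (kept cells) and 33168 deposited barcodes. Cells that met every condition except the last are called lacking cells, and there were 1820 of them. All 6 libraries held liver non-parenchymal cells of male C57BL/6J mice, 8 weeks old at the start, fed a high-fat diet for 24 weeks to induce nonalcoholic steatohepatitis (NASH). For the last 8 weeks, mice of 3 libraries were given vehicle (DMSO) intragastrically. Those of the other 3 were given the biflavone ginkgetin, 10 mg/kg/day, a compound of ginkgo leaves. Both groups share the diet, and mice on a normal diet are not part of the comparison. The labels do not tie a library to an animal, so p-values measure the spread between libraries, which may be technical. Values per library are listed in the order of replicates 1, 2 and 3.

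Kupffer cells are the macrophages that live in the liver sinusoids. They bind bacteria and cell debris from portal blood through complement and scavenger receptors, and they clear aged red cells and recycle their iron. Long-lived resident Kupffer cells carry the phosphatidylserine receptor Tim-4, the product of Timd4. In steatohepatitis part of this population is lost and replaced from monocytes, and macrophages appear that express Trem2, Gpnmb, Cd9 and Spp1, which are known as lipid-associated or NASH-associated macrophages (NAMs).

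Gated cells numbered 177, 109 and 163 in the vehicle libraries and 82, 107 and 424 in the ginkgetin libraries, and most of those from ginkgetin-treated mice came from replicate 3. Lacking cells numbered 747, 460 and 502 in the vehicle libraries and 13, 30 and 68 in the ginkgetin libraries. Of gated and lacking cells together, 19.2, 19.2 and 24.5% in the vehicle libraries and 86.3, 78.1 and 86.2% in the ginkgetin libraries were gated, and the groups did not overlap. Since the genes that chose the cells set this share, it is a description with no test. Of all kept cells, 2.94, 3.27 and 3.94% in the vehicle libraries and 2.35, 1.55 and 11.6% in the ginkgetin libraries were gated, and here ginkgetin libraries lay on both sides of the vehicle range. The median gated cell held 11207, 6868 and 21139 UMIs in the vehicle libraries and 2255, 1825 and 2640 UMIs in the ginkgetin libraries. Vehicle cells were deeper in every library, so depth and treatment cannot be told apart. With every cell thinned to 1000 UMIs before the same conditions were applied, 8.82, 8.76 and 9.28% in the vehicle libraries and 70.6, 67.7 and 73.2% in the ginkgetin libraries of gated and lacking cells were gated.

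**Figure D1:**
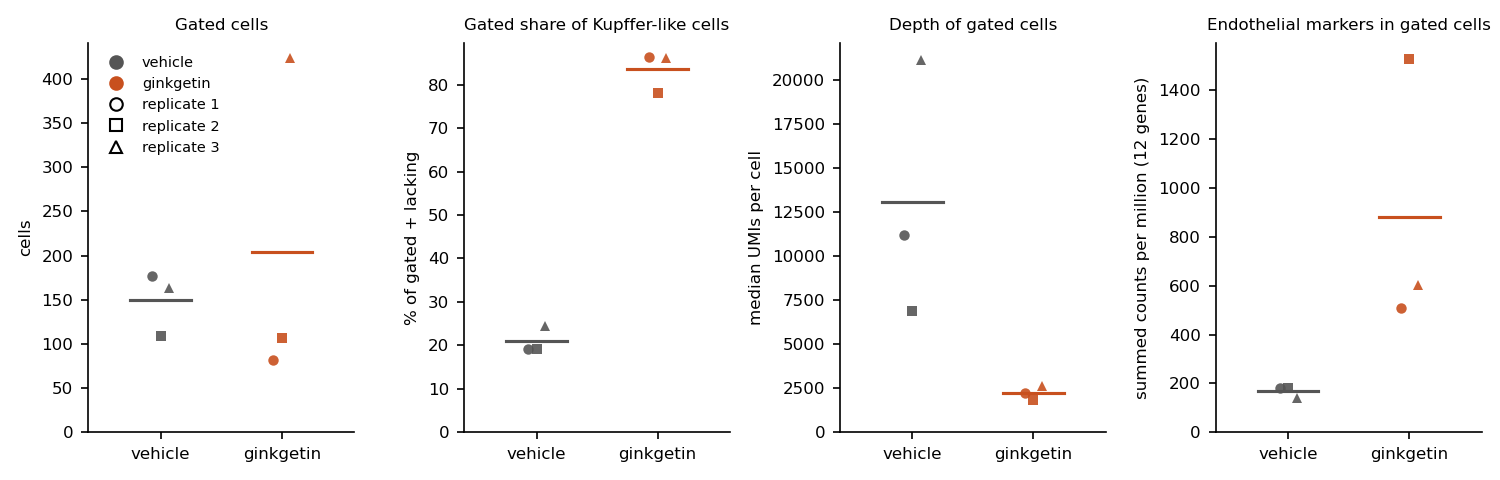
Gated cells by library: the number of cells, their share of gated and lacking cells in percent, their median UMIs per cell, and the summed level of 12 endothelial marker genes in CPM. Points are libraries and horizontal lines are group means. The gated share lies between 19.2 and 24.5% in the vehicle libraries and between 78.1 and 86.3% in the ginkgetin libraries, while the median UMI count is at least 6868 in the former and at most 2640 in the latter.

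Among the genes that chose the cells, Timd4 was detected in 83.1, 79.8 and 79.8% in the vehicle libraries and 69.5, 60.7 and 74.8% in the ginkgetin libraries. Marco, a scavenger receptor with a collagen-like domain, was detected in 32.8, 26.6 and 16.6% in the vehicle libraries and 52.4, 46.7 and 53.3% in the ginkgetin libraries. Cd163, the receptor for haemoglobin bound to haptoglobin, was detected in 29.4, 33.9 and 21.5% in the vehicle libraries and 65.9, 65.4 and 65.1% in the ginkgetin libraries. Most vehicle gated cells were thus chosen through Timd4, while Cd163 was found in most ginkgetin gated cells and in a minority of vehicle ones. All 3 genes were detected together in 11.3, 8.26 and 0.613% in the vehicle libraries and 25.6, 16.8 and 25.7% in the ginkgetin libraries. Levels are given as CPM, the UMIs of a gene summed over the gated cells of a library and scaled to a total of 1000000, with libraries aligned by the trimmed mean of M-values (TMM) unless stated otherwise. The mean CPM of Cd163 was 61.6 ± 46.6 with vehicle and 517 ± 81 with ginkgetin (SD, n = 3), that of Marco 309.6 ± 165 with vehicle and 634 ± 67 with ginkgetin, and that of Timd4 289.7 ± 73.6 with vehicle and 407 ± 72.7 with ginkgetin. The C1q genes, which encode the recognition part of the first complement component, were lower with ginkgetin. C1qb, for one, stood at 7943 ± 134 with vehicle and 2584 ± 629 with ginkgetin CPM. No test is given for the genes of the rule. At the limit for Timd4, Marco and Cd163, 252 gated cells had exactly 1 UMI and the 1820 lacking cells had 0. At the endothelial limit 222 gated cells had 1 UMI of Kdr and Ptprb, a share of the gated cells of 10.2, 16.5 and 9.20% in the vehicle libraries and 13.4, 55.1 and 23.8% in the ginkgetin libraries. The 62 cells left out with 2 UMIs numbered 0, 2 and 2 in the vehicle libraries and 1, 36 and 21 in the ginkgetin libraries, so most of them came from ginkgetin replicates 2 and 3. The other limits touched fewer cells, since 2 gated cells had exactly 3 UMIs of Clec4f, Vsig4 and Cd5l and 6 had exactly 5 of the C1q genes.

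The label was checked against 20 Kupffer cell genes outside the rule. All 20 were detected, and their summed level without TMM scaling was 13465 to 14104 CPM with vehicle and 15804 to 22586 CPM with ginkgetin, above the lacking cells and above all other kept cells in 6 of 6 libraries. Folr2, the folate receptor of resident macrophages, had a mean of 1198 CPM in vehicle gated cells, 550.2 CPM in vehicle lacking cells and 15.1 CPM in the other kept cells, without TMM scaling. Clec1b, a C-type lectin, had 830.5, 664 and 65.4 CPM in the same order. Slc40a1, the iron exporter ferroportin, had 1069.5, 598 and 30.2 CPM. These 3 resident genes were higher in gated than in lacking cells in 6 of 6 libraries. Not all of the 20 went this way, since Fcgr1 was lower in gated than in lacking cells in every vehicle library. Lipid-associated genes had the opposite order to the 3 resident genes in the vehicle libraries. Trem2 stood at 592 CPM in gated and 1123 CPM in lacking cells, Gpnmb at 147 and 504 CPM, and Apoe at 37241 and 53843 CPM. All 3 were lower in gated cells in 3 of 3 vehicle libraries. These levels describe a choice made on the same cells and are not tested.

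Markers of other liver cells were present in gated cells. In every list but that of neutrophils their sum lay below that of the other kept cells. The 12 endothelial markers, all detected, summed without TMM scaling to 141 to 181 CPM with vehicle and 508 to 1525 CPM with ginkgetin, highest in ginkgetin replicate 2, and in the other kept cells to 1564 to 1732 and 5117 to 8379 CPM. The 9 T cell markers summed to 6.23 to 17.4 CPM with vehicle and 47.1 to 98.9 CPM with ginkgetin, with Trac at 0 in 5 of 6 libraries. The 8 dendritic cell markers summed to 11.8 to 26.1 CPM with vehicle and 36 to 72 CPM with ginkgetin. None of these 3 lists overlapped between the groups, and each was higher with ginkgetin. The 12 hepatocyte markers (477 to 760.2 CPM with vehicle and 379.8 to 1228 CPM with ginkgetin), the 10 monocyte markers (219.8 to 611 CPM with vehicle and 257 to 852 CPM with ginkgetin), the 10 stellate cell markers (69.1 to 194 CPM with vehicle and 76 to 220.4 CPM with ginkgetin), the 9 B cell markers (17.9 to 157 CPM with vehicle and 32 to 506 CPM with ginkgetin) and the 8 neutrophil markers (70.0 to 146 CPM with vehicle and 124 to 423 CPM with ginkgetin, Camp at 0 throughout) overlapped. The 8 markers each of NK and bile duct cells also overlapped and summed to at most 132 and 36 CPM in any library. The neutrophil sum was above that of the other kept cells in 4 of 6 libraries. In ginkgetin replicate 2 the hepatocyte sum was near that of the other kept cells, at 1228 and 1280.5 CPM. The part of these markers in the results was not tested. Replicate 3 of both groups was counted with another gene set, since 946 genes had no UMI in either and 442 of them had UMIs in all other libraries. Of all barcodes 520 also occurred in another library, 13 of them gated cells.

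Differences between treatments were tested on counts summed per library with edgeR's quasi-likelihood test. Genes are called changed where the p-value adjusted by Benjamini and Hochberg's method stayed below 0.05 and the change exceeded 2-fold. Of 8117 genes tested, 392 (4.83%) were called, 174 (2.14%) higher and 218 (2.69%) lower with ginkgetin. These totals include the genes of the rule. Outside the rule 8106 genes were tested, with 173 called higher and 217 lower. The groups did not overlap for any of the 392, but a call at these limits favours such genes, so this is no further evidence. With the replicate number as a block 1125 genes (13.9%) were called, 471 (5.8%) higher and 654 (8.06%) lower. Without a scaling factor 649 (8.0%) were called, 553 (6.81%) higher and 96 (1.18%) lower, and the median log2 change of all genes moved from 0.024 to 0.45, so directions are given relative to the median gene. Counts of list members in these fits are to be read against these shares. With cells thinned to 2000 UMIs before the gate, which leaves out shallower cells and evens the depth, 51 of 1949 genes (2.62%) were called, 19 (0.975%) higher and 32 (1.64%) lower. The count rests on every library. It was 1 without vehicle replicate 1, 1 without vehicle replicate 2, 198 without vehicle replicate 3, 9 without ginkgetin replicate 1, 0 without ginkgetin replicate 2 (1707 genes at an unadjusted p under 0.05) and 4 without ginkgetin replicate 3. Trem2 was called in each of these fits except that without ginkgetin replicate 2, where its adjusted p was 0.0988.

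Genes of lipid-associated macrophages were lower in the gated cells of ginkgetin-treated mice. Of 22 genes on this list, all tested, 12 fell, none rose and 10 were not called, against 2.69% of all genes called lower. The median log2 fold change was -2.04, or -1.59 without a scaling factor, where 10 were called lower, against 0.024 over all genes. With the thinned cells 15 members were tested, 7 were called lower, against 1.64% of all genes, and the median was -1.47. The list was chosen with earlier results of these data known and is not independent evidence of its direction.

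Trem2, a lipid-sensing receptor of macrophages (GRCm38, chr17:48346401-48352276), was measured at 707, 574 and 772 CPM in the vehicle libraries and 32.7, 35.7 and 28.1 CPM in the ginkgetin libraries (log2 fold change -4.44, SE 0.27, adjusted p = 0.00168). Every vehicle library was far above every ginkgetin library, and the summed UMIs were 3924 and 76. Gpnmb, which encodes a lysosomal membrane glycoprotein (chr6:49036518-49058182), was measured at 144, 156 and 206 CPM in the vehicle libraries and 12.3, 0 and 0 CPM in the ginkgetin libraries (adjusted p = 0.0298). Its ginkgetin level rests on 3 UMIs, all in replicate 1, against 973 UMIs with vehicle, a pooled ratio of 113 with a 95% counting interval of 38.5 to 548. Cd9, a tetraspanin gene (chr6:125460266-125494760), was measured at 405, 266 and 339 CPM in the vehicle libraries and 20.4, 23.8 and 12.4 CPM in the ginkgetin libraries (log2 fold change -4.29, SE 0.35, adjusted p = 0.00712). Fabp5, which encodes a fatty acid carrier (chr3:10012585-10016610), was measured at 201, 286 and 137 CPM in the vehicle libraries and 8.17, 31.7 and 7.14 CPM in the ginkgetin libraries (log2 fold change -4.00, SE 0.59, adjusted p = 0.0263), with -4.80 without ginkgetin replicate 2 and -3.34 without ginkgetin replicate 3. Both were lower in each ginkgetin library than in any vehicle library. The same order held for Plin2, a lipid droplet coat gene, with 536, 444 and 524 CPM in the vehicle libraries and 159, 131 and 185 CPM in the ginkgetin libraries (log2 fold change -1.65, SE 0.24, adjusted p = 0.0255). It also held for the integrin gene Itgax, with 30.8, 25.7 and 47.1 CPM in the vehicle libraries and 12.3, 3.96 and 7.62 CPM in the ginkgetin libraries (log2 fold change -2.17, SE 0.42, adjusted p = 0.0399).

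Gdf3 and Mmp12 of this list were also among the 8 largest falls of called genes with no overlap and at least 50 CPM in the higher group. Gdf3, which encodes a ligand of the TGF-beta family (chr6:122605403-122610087), was measured at 114, 70.0 and 71.7 CPM in the vehicle libraries and 0, 0 and 0 CPM in the ginkgetin libraries (adjusted p = 0.0204). With 458 UMIs against 0, it was at least 53.1-fold higher with vehicle, taking 3 counts over the ginkgetin group as the limit. Mmp12, the macrophage elastase gene (chr9:7344397-7360461), was measured at 697, 434 and 797 CPM in the vehicle libraries and 0, 3.96 and 16.7 CPM in the ginkgetin libraries (log2 fold change -5.96, SE 0.68, adjusted p = 0.0230), and its log2 fold change was -8.24 without ginkgetin replicate 3, which held 35 of its 36 ginkgetin UMIs. Lgals3, Anxa2, Atp6v0d2 and Ctsd complete the called members and were named after their values were seen. Lgals3, a galectin gene, had 2037 ± 574 CPM with vehicle and 364 ± 128 CPM with ginkgetin (SD, n = 3, log2 fold change -2.49, adjusted p = 0.0255). Anxa2, an annexin gene, had 255 ± 81.1 CPM with vehicle and 27.8 ± 15.5 CPM with ginkgetin (log2 fold change -3.05, adjusted p = 0.0255). Atp6v0d2, a subunit of the proton pump of lysosomes, had 33.2 ± 5.29 CPM with vehicle and 0.476 ± 0.825 CPM with ginkgetin (log2 fold change -4.82, adjusted p = 0.0204). Ctsd, a cathepsin gene, had the smallest change of the 12, with 3772 ± 521 CPM with vehicle and 1440.0 ± 60.7 CPM with ginkgetin (log2 fold change -1.39, adjusted p = 0.0393). Outside the list, Ccl9, a chemokine gene of myeloid cells, was measured at 372, 318 and 251 CPM in the vehicle libraries and 16.3, 0 and 9.05 CPM in the ginkgetin libraries (log2 fold change -5.16, SE 0.56, adjusted p = 0.0204). Capg, which encodes an actin-capping protein, was measured at 581, 418 and 518 CPM in the vehicle libraries and 61.3, 35.7 and 39.5 CPM in the ginkgetin libraries (log2 fold change -3.50, SE 0.30, adjusted p = 0.00740). Ccl9 and Capg were also among the 8 largest falls, for which a lack of overlap was required. Capg was detected in every ginkgetin library.

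The remaining 10 members were not called. Spp1, which encodes osteopontin, was measured at 84.6, 68.5 and 32.2 CPM in the vehicle libraries and 40.9, 186 and 33.8 CPM in the ginkgetin libraries (log2 fold change 0.42, SE 0.67, adjusted p = 0.738), and the highest value was that of ginkgetin replicate 2. Lpl, the lipoprotein lipase gene, was measured at 2067, 1575 and 2386 CPM in the vehicle libraries and 939.9, 1697 and 1396 CPM in the ginkgetin libraries (log2 fold change -0.58, SE 0.31, adjusted p = 0.272), and the groups overlapped. Cd63, a tetraspanin gene of the lysosome, did not overlap, with 565, 377 and 616 CPM in the vehicle libraries and 127, 3.96 and 7.62 CPM in the ginkgetin libraries, but was called only with the replicate block (log2 fold change -3.68, adjusted p = 0.0773, and 0.00111 with the block). The block also called Fabp4 and Tyrobp, which brought the list to 15 of 22 called lower, where 8.06% of all genes were. The other members, Lgals1, Ctsb, Ctsl, Ccl3 and Ccl4, had log2 fold changes from -0.88 (Ccl4) to -0.0046 (Lgals1). Trem2 and Gpnmb were lower outside the gate as well. In the other kept cells Trem2 stood at 283 CPM with vehicle and 8.76 CPM with ginkgetin, and Gpnmb at 105 and 3.0 CPM, without TMM scaling and with no test. The part of free RNA in the gated levels was not tested.

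**Figure D2:**
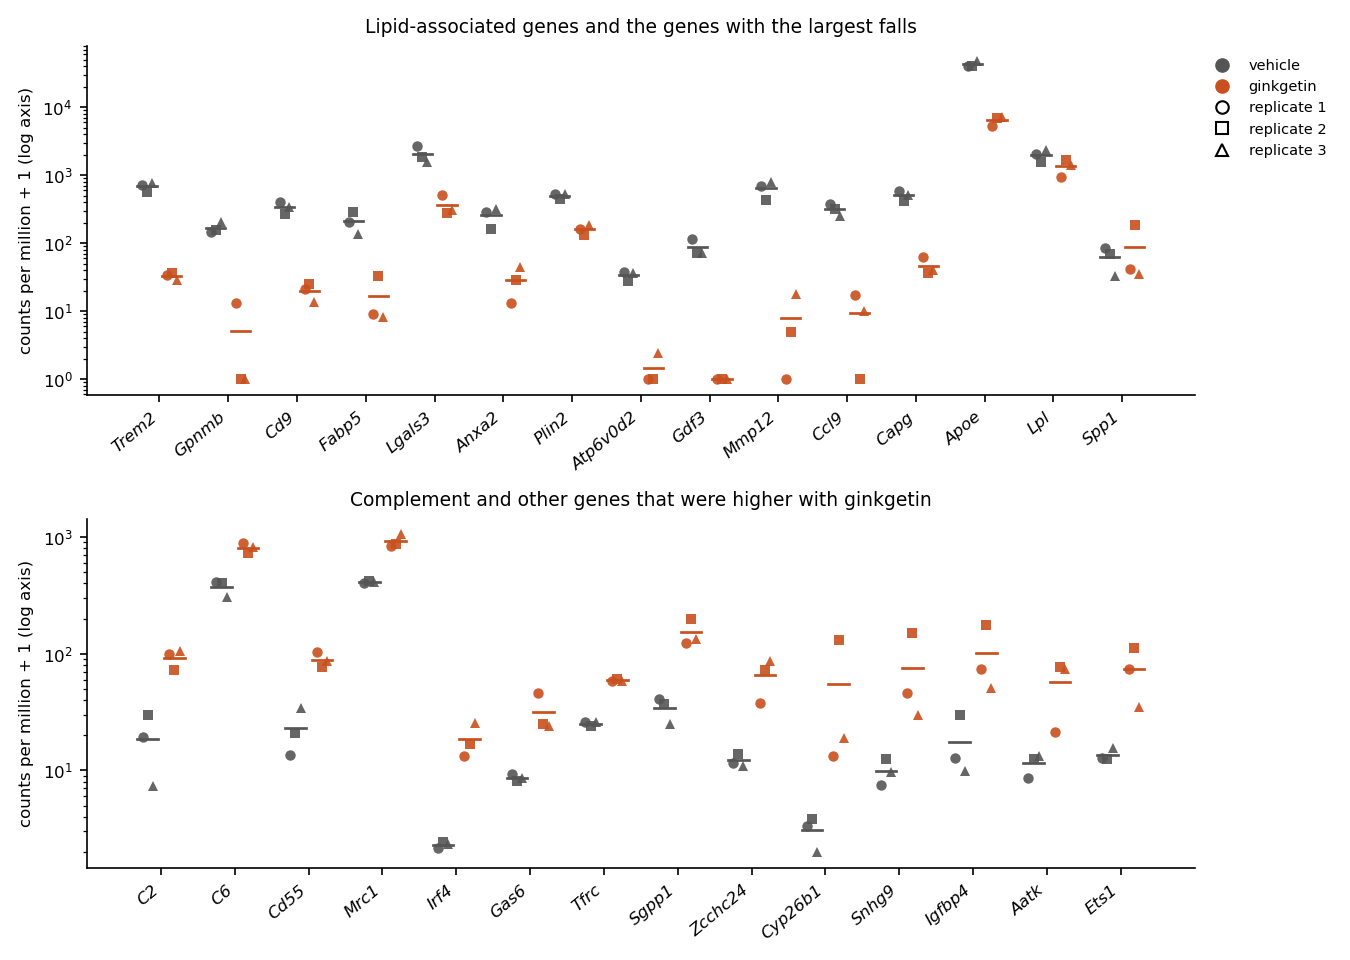
Levels of named genes in gated cells, as CPM plus 1 on a log axis, for each library (points, shaped by replicate) with group means (horizontal lines). The upper panel shows lipid-associated genes and the largest falls, where Trem2 lies between 574 and 772 CPM in the vehicle libraries and between 28.1 and 35.7 CPM in the ginkgetin libraries, while Spp1 overlaps. The lower panel shows genes that were higher with ginkgetin, where Mrc1 lies between 404 and 416 CPM and between 829.6 and 1049 CPM.

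RefSeq promoter sequences (GRCm38.p6) were at hand for 9 of the 12 members called lower. The 250 bases before each start were searched on both strands for TGANTCA (the AP-1 motif), CACGTG (an E-box), GAGGAAGT (PU.1), TGCTGAC (MAF) and the interferon response motif, GAAA followed after 2 bases by GAAA. Of the 9 genes, 4 held TGANTCA, 1 CACGTG and 1 GAGGAAGT, and none held the others. TGANTCA occurred in 7.82% of 27025 genes, CACGTG in 6.86% and GAGGAAGT in 2.79%. None of the 4 members with a promoter that were not called held TGANTCA. The AP-1 matches are shown because they are the letters shared by the most members that fell, with the motif in capitals. All lie on the plus strand, at chr17:48346381-48346400 (Trem2), chr9:7347319-7347347 (Mmp12), chr7:128129483-128129511 (Itgax) and chr9:69453577-69453605 (Anxa2), where the motif starts 9, 44, 56 and 95 bases before the start in the RefSeq table, which for Mmp12 lies inside the locus given above. A match describes the letters and is not a bound site.
Trem2: ttctccctcctTGAATCAca
Mmp12: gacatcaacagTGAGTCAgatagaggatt
Itgax: cccacctcctcTGAGTCAcgctgacaact
Anxa2: tccaagttggaTGAGTCAcccagcagggt

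Because vehicle cells were deeper, the share of gated cells with a UMI was compared after thinning every cell to 1000 UMIs, which left out 1 vehicle and 22 ginkgetin cells. Trem2 was then detected in 29.9, 32.1 and 33.3% in the vehicle libraries and 4.88, 5.61 and 1.74% in the ginkgetin libraries. Gpnmb was detected in 6.78, 3.67 and 12.3% in the vehicle libraries and 0, 0 and 0% in the ginkgetin libraries, where 0 of 402 cells in ginkgetin replicate 3 has an exact 95% interval up to 0.913%. T cells, which should lack both genes, had Trem2 in 1.88, 0.831 and 0.963% in the vehicle libraries and 0, 0 and 0% in the ginkgetin libraries at the same depth, below the gated cells of every library. They had Gpnmb in 0.573, 1.495 and 1.08% in the vehicle libraries and 0.0912, 0.506 and 0.846% in the ginkgetin libraries. The exact 95% intervals of Gpnmb in gated cells and T cells of vehicle replicate 2 overlapped, at 1.01 to 9.13% and 0.686 to 2.82%, and the ginkgetin gated shares of 0 lay below those of T cells. Without thinning, Trem2 was detected in 74, 63.3 and 85.3% in the vehicle libraries and 7.32, 8.41 and 9.43% in the ginkgetin libraries of gated cells and in 4.91, 4.15 and 5.17% in the vehicle libraries and 0.182, 0.126 and 0.282% in the ginkgetin libraries of T cells, whose median UMIs were 3276, 2807 and 4456 in the vehicle libraries and 2718, 3179 and 5950 in the ginkgetin libraries. Cd9 was detected in 19.5 ± 3.79% with vehicle and 2.88 ± 1.42% with ginkgetin of thinned gated cells (SD, n = 3), and Fabp5 in 10.3 ± 3.60% and 1.89 ± 2.46%. By library, ginkgetin gated cells had Cd9 in 1.24 to 3.74% and Fabp5 in 0 to 4.67%, near the T cells of the same libraries with 1.0 to 3.24% and 0.987 to 3.16%, so these shares were not distinguished from background. Vehicle T cells had 2.16 to 2.46% and 2.66 to 4.34%, below the vehicle gated cells. Of the resident genes, Folr2 was detected in 63.1 ± 2.14% and 41.9 ± 2.76% and Clec1b in 57 ± 6.69% and 43.9 ± 3.71%, both less often with ginkgetin, and Slc40a1 in 59.4 ± 2.38% and 81.2 ± 8.55%, more often with ginkgetin. T cells had Folr2 in 0 to 0.831%, Clec1b in 0.282 to 2.15% and Slc40a1 in 0.481 to 1.01% over the 6 libraries. H2-Ab1, an MHC class II gene, was detected in 75.9 ± 6.82% and 83.7 ± 8.86%, with overlapping libraries. For the 7 genes other than H2-Ab1 the groups did not overlap, and the 2-sided exact permutation p was 0.1, the smallest that 3 against 3 libraries allow, or 0.114 adjusted over the 8 genes. H2-Ab1 had an exact permutation p of 0.3. Without thinning the shares of Slc40a1 and H2-Ab1 turned direction.

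The Trem2 share at 1000 UMIs was also read in gated cells with and without each of Timd4, Marco and Cd163. With Timd4 it was 29.9, 34.5 and 31.5% in the vehicle libraries and 5.26, 6.15 and 1.93% in the ginkgetin libraries. Without Timd4 it was 30, 22.7 and 40.6% in the vehicle libraries and 4, 4.76 and 1.10% in the ginkgetin libraries. With Cd163 it was 23.1, 24.3 and 40% in the vehicle libraries and 7.41, 5.71 and 2.25% in the ginkgetin libraries, and without Cd163 32.8, 36.1 and 31.5% in the vehicle libraries and 0, 5.41 and 0.741% in the ginkgetin libraries. In each of the 6 subsets every vehicle library lay above every ginkgetin library. Subsets were as small as 22 cells in a library and were not tested.

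**Figure D3:**
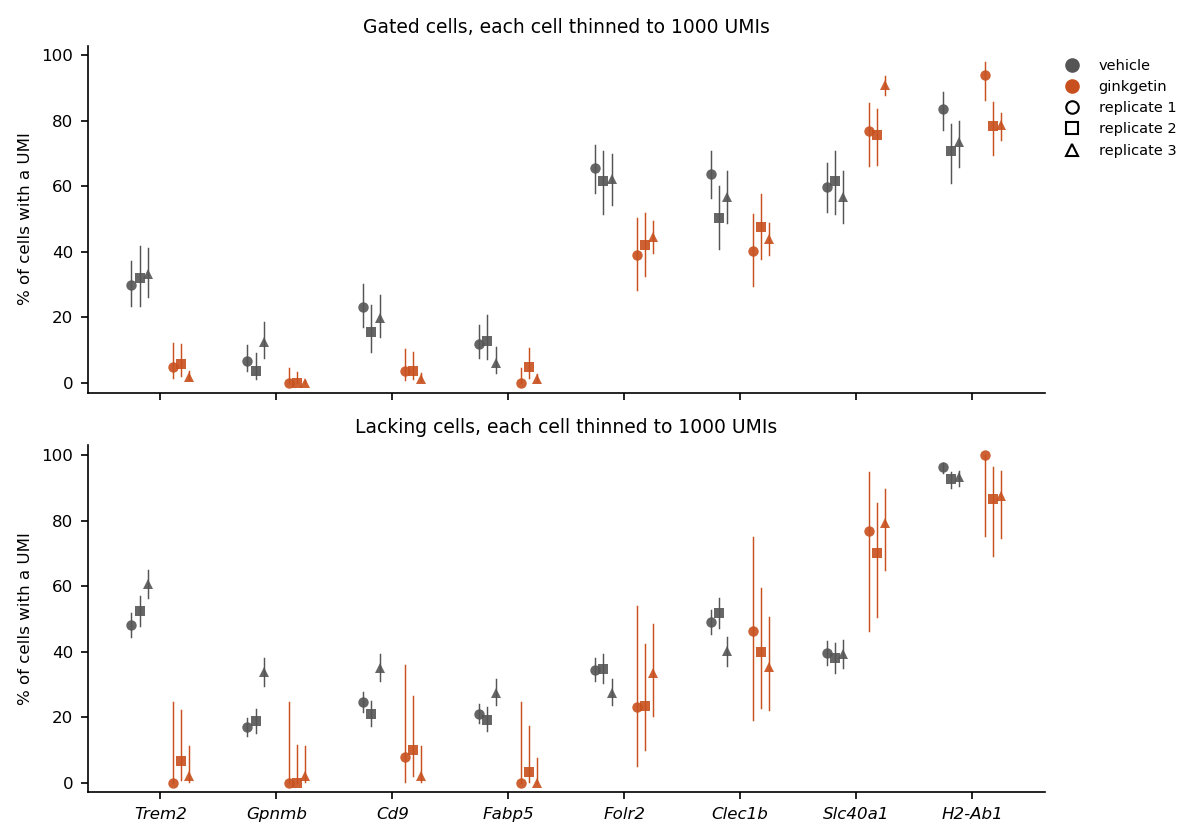
Share of gated (upper) and lacking (lower) cells with a UMI of 8 genes, in percent, after thinning each cell to 1000 UMIs. Points are libraries and vertical lines their exact 95% intervals, which cover counting error only. Trem2 lies between 29.9 and 33.3% in vehicle and between 1.74 and 5.61% in ginkgetin gated cells.

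Genes of lipid handling and of the lysosome changed in part. Apoe, which encodes an apolipoprotein secreted by macrophages (chr7:19696244-19701310), was measured at 40723, 41159 and 47342 CPM in the vehicle libraries and 5357, 6957 and 7143 CPM in the ginkgetin libraries (log2 fold change -2.73, SE 0.37, adjusted p = 0.0249). The groups were far apart, and Apoe in the other kept cells stood at 11478 CPM with vehicle and 2414 CPM with ginkgetin, without TMM scaling. Cd36, a receptor gene for fatty acids and oxidized lipoproteins, fell, with 588, 409.8 and 439 CPM in the vehicle libraries and 135, 166 and 206 CPM in the ginkgetin libraries (log2 fold change -1.49, SE 0.27, adjusted p = 0.0392). Pparg, which encodes a lipid-activated nuclear receptor, fell, with 30.8, 27.1 and 38.8 CPM in the vehicle libraries and 4.09, 7.93 and 7.62 CPM in the ginkgetin libraries (log2 fold change -2.20, SE 0.35, adjusted p = 0.0328). Of 14 tested genes of the liver X receptor (LXR) and cholesterol efflux list, 2 fell (Apoe and Plin2) and none rose, against 2.69% of all genes called lower, and the median log2 fold change was -0.49. Pltp, a phospholipid transfer gene, was called only with the replicate block (log2 fold change -1.02, adjusted p = 0.0583, and 0.00729 with the block), as was the desaturase gene Scd1. Nr1h3, which encodes LXR alpha, had 469 ± 45.6 CPM with vehicle and 576 ± 27.9 CPM with ginkgetin (log2 fold change 0.30, adjusted p = 0.410). Of 33 tested genes of the lysosome and V-ATPase list, 3 fell and none rose, beside 2.69% called lower among all genes. The median was -0.19. Without a scaling factor it turned to 0.22, and 1 member was called higher and none lower. The block called 1 higher, where 5.8% of all genes were, Mcoln1, a lysosomal ion channel gene (log2 fold change 1.36, adjusted p = 0.0576, and 0.0233 with the block), named after its values were seen. Ctsz, a cathepsin gene, had 1367 ± 279 CPM with vehicle and 448 ± 94.6 CPM with ginkgetin (log2 fold change -1.61, adjusted p = 0.0365). Gla, the alpha-galactosidase gene, had 37.5 ± 11.6 CPM with vehicle and 9.74 ± 2.25 CPM with ginkgetin (log2 fold change -2.00, adjusted p = 0.0393), and Gusb, the beta-glucuronidase gene, had 224 ± 37.5 CPM with vehicle and 84.5 ± 25.4 CPM with ginkgetin (log2 fold change -1.41, adjusted p = 0.0404). None of 12 tested cholesterol synthesis genes was called. The lowest p-values belonged to Dhcr7 (log2 fold change -0.96, adjusted p = 0.139), Fdps (log2 fold change -1.26, adjusted p = 0.165) and Idi1 (log2 fold change 1.05, adjusted p = 0.214), and the block called Fdps (adjusted p = 0.0258).

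Kupffer cell identity genes outside the rule were called in both directions. Of 20 tested, 1 rose, 2 fell and 17 were not called, where 2.14% of all genes were called higher and 2.69% lower. The median was -0.069. It was 0.35 without a scaling factor, with 5 called higher and 2 lower, and with the replicate block 2 rose and 4 fell, beside 5.8% and 8.06% of all genes. With the thinned cells 2 of 19 were called lower and none higher. C6, a terminal complement component (chr15:4727067-4804045), rose, with 407, 401 and 302 CPM in the vehicle libraries and 883, 721 and 826 CPM in the ginkgetin libraries (log2 fold change 1.13, SE 0.24, adjusted p = 0.0434). Cd68, a lysosomal glycoprotein gene of macrophages, fell, with 913, 731 and 758 CPM in the vehicle libraries and 249, 214 and 260.4 CPM in the ginkgetin libraries (log2 fold change -1.73, SE 0.23, adjusted p = 0.0249). Fcgr1, which encodes the high-affinity IgG receptor, fell, with 363, 328 and 339 CPM in the vehicle libraries and 127, 115 and 121 CPM in the ginkgetin libraries (log2 fold change -1.51, SE 0.21, adjusted p = 0.0249). None of these 3 genes overlapped between the groups. Folr2 had 1687, 1502 and 1039 CPM in the vehicle libraries and 739.7, 484 and 696 CPM in the ginkgetin libraries (log2 fold change -1.14, adjusted p = 0.0634) and was called with the block (adjusted p = 0.00693). Clec1b had 1107, 1024 and 789.8 CPM in the vehicle libraries and 511, 523 and 502 CPM in the ginkgetin libraries (log2 fold change -0.93, adjusted p = 0.0608) and stayed under the fold limit with the block too. Both were lower in every ginkgetin library. Fcna, which encodes ficolin A of the lectin pathway of complement, had 915 ± 278 CPM with vehicle and 1612 ± 187 CPM with ginkgetin (log2 fold change 0.82, adjusted p = 0.136). Slc40a1 had 1248 ± 102 CPM with vehicle and 2059 ± 327 CPM with ginkgetin (log2 fold change 0.72, adjusted p = 0.118). Il18bp, which encodes the inhibitor of interleukin-18, had 897 ± 111 CPM with vehicle and 579.6 ± 97.1 CPM with ginkgetin (log2 fold change -0.63, adjusted p = 0.151). None of these 3 was called. The general macrophage gene Adgre1 (F4/80) had 838 ± 216 CPM with vehicle and 670.0 ± 177 CPM with ginkgetin (log2 fold change -0.33, adjusted p = 0.523) and turned upward without a scaling factor. Itgam (CD11b) had 55.8 ± 33.8 CPM with vehicle and 30.6 ± 5.40 CPM with ginkgetin (log2 fold change -0.86, adjusted p = 0.262).

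Of 20 lineage transcription factors, all tested, 1 was called, the lower Pparg, against 4.83% of all genes called in either direction. Klf4, a Krüppel-like factor, had 37.9, 72.8 and 115 CPM in the vehicle libraries and 278, 170.4 and 261 CPM in the ginkgetin libraries (log2 fold change 1.65, adjusted p = 0.0595) and was called higher with the block (adjusted p = 0.00277). Maf, a factor of resident macrophages, had 357 ± 53.2 CPM with vehicle and 699 ± 141 CPM with ginkgetin (log2 fold change 0.97, adjusted p = 0.0650). Spic, the factor of iron-recycling macrophages, had 91.2 ± 15.2 CPM with vehicle and 128 ± 57.9 CPM with ginkgetin (log2 fold change 0.50, adjusted p = 0.406). The median of the list was -0.043, and without a scaling factor it was 0.36, with 3 called higher and 1 lower.

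Complement genes were called in both directions. Of 14 tested, 4 rose, 1 fell and 9 were not called, against 2.14% of all genes called higher and 2.69% lower. The fit with no scaling factor called 4 higher and none lower, and that with the replicate block 5 higher, with C4b added (log2 fold change 1.42, adjusted p = 0.138, and 0.00478 with the block), and 1 lower, beside 5.8% and 8.06% of all genes. With the thinned cells 7 members were tested and none was called in either direction. The summed level of the list without TMM scaling was 1982 to 2441 CPM with vehicle and 2901 to 3782 CPM with ginkgetin. C2, a protease gene of the classical pathway (chr17:34862602-34882100), was measured at 18.3, 28.6 and 6.31 CPM in the vehicle libraries and 98.1, 71.3 and 104 CPM in the ginkgetin libraries (log2 fold change 2.50, SE 0.50, adjusted p = 0.0408). Cd55, the membrane inhibitor decay-accelerating factor, was measured at 12.4, 20.0 and 33.5 CPM in the vehicle libraries and 102, 75.3 and 84.7 CPM in the ginkgetin libraries (log2 fold change 1.95, SE 0.38, adjusted p = 0.0394). The groups did not overlap for Cd55, nor for C2, whose choice among the largest rises required it. C6, described above, was another member that rose. The member that fell was Itgax, a subunit of a complement receptor, and the median of the list was 8.53e-04.

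Of 15 tested iron and heme genes, 1 rose and 2 fell, beside 2.14% and 2.69% of all genes. The median was -0.00317. It became 0.40 without a scaling factor, with 2 members called higher and none lower. With the block 1 rose and 3 fell, again beside 5.8% and 8.06%, the added member being the ferritin light chain gene Ftl1 (log2 fold change -1.25, adjusted p = 0.101, and 0.0114 with the block). Their sum without TMM scaling was 26535 to 30076 CPM with vehicle and 18598 to 23292 CPM with ginkgetin, lower in every ginkgetin library. Tfrc, the transferrin receptor gene, rose, with 24.8, 22.8 and 24.9 CPM in the vehicle libraries and 57.2, 59.5 and 57.6 CPM in the ginkgetin libraries (log2 fold change 1.25, SE 0.22, adjusted p = 0.0365). Blvrb and Blvra, which encode biliverdin reductases, fell. Blvrb had 959 ± 234 CPM with vehicle and 373 ± 66.8 CPM with ginkgetin (log2 fold change -1.37, adjusted p = 0.0419), and Blvra had 187 ± 11.9 CPM with vehicle and 79.4 ± 21.8 CPM with ginkgetin (log2 fold change -1.23, adjusted p = 0.0430). Hmox1, the heme oxygenase gene of the step before them, had 1249 ± 167 CPM with vehicle and 1413 ± 403 CPM with ginkgetin (log2 fold change 0.18, adjusted p = 0.737). Of 18 tested genes of scavenging and efferocytosis, 2 rose (Mrc1 and Gas6) and 2 fell (Cd36 and Colec12), again beside 2.14% and 2.69% of all genes. With no scaling factor 2 were called higher and none lower. Gas6, which encodes a bridge between phosphatidylserine and the receptors Mertk and Axl, rose, with 8.28, 7.14 and 7.64 CPM in the vehicle libraries and 45, 23.8 and 22.9 CPM in the ginkgetin libraries (log2 fold change 1.88, SE 0.38, adjusted p = 0.0407). Its receptors were not called. Mertk had 202 ± 37.6 CPM with vehicle and 216 ± 72.5 CPM with ginkgetin (log2 fold change 0.11, adjusted p = 0.865), and Axl had 543 ± 26.9 CPM with vehicle and 631 ± 13.2 CPM with ginkgetin (log2 fold change 0.22, adjusted p = 0.548). Msr1, a scavenger receptor gene, had 327 ± 26.6 CPM with vehicle and 315 ± 56.5 CPM with ginkgetin (log2 fold change -0.05, adjusted p = 0.927) and turned direction under 6 alternatives, among them no scaling factor.

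The study asked about macrophage polarization, and genes of both states were examined. Of 8 tested M2 genes, which mark alternative activation, 2 rose and none fell, against 2.14% of all genes called higher, with a median of 0.42 and a summed level without TMM scaling of 999 to 1199 CPM with vehicle and 1723 to 2431 CPM with ginkgetin. Mrc1, the mannose receptor gene (chr2:14229414-14332023), was measured at 404, 416 and 409.7 CPM in the vehicle libraries and 829.6, 876 and 1049 CPM in the ginkgetin libraries (log2 fold change 1.17, SE 0.22, adjusted p = 0.0394). Irf4, a transcription factor gene (chr13:30749233-30766981), was measured at 1.18, 1.43 and 1.33 CPM in the vehicle libraries and 12.3, 15.9 and 24.3 CPM in the ginkgetin libraries (log2 fold change 3.78, SE 0.48, adjusted p = 0.0249), from 7 vehicle and 58 ginkgetin UMIs. Both genes were higher in each ginkgetin library than in any vehicle library. Mrc1 was a large part of the M2 sum. Of the 15 members of the list, 8, 8 and 13 had a UMI in the gated cells of the ginkgetin libraries. Clec10a, a C-type lectin gene, had 13.4 ± 2.38 CPM with vehicle and 27.2 ± 1.75 CPM with ginkgetin (log2 fold change 0.999, adjusted p = 0.0896) and was called with the block (adjusted p = 0.0391). Retnla and Chil3 were too low to be tested. Of 11 tested M1 genes, which mark classical activation, 1 fell and none rose, against 2.69% of all genes called lower, with a median of -0.35. Without a scaling factor the median was 0.0867, and 1 was called higher and none lower, while the block called 2 higher and 1 lower, where it called 5.8% of all genes higher. The summed level of the M1 list without TMM scaling went the other way from its median, with 779 to 1447 CPM with vehicle and 1507 to 1835 CPM with ginkgetin and no overlap, and Il1b, the interleukin-1 beta gene, was its largest part, with 381 ± 212 CPM with vehicle and 798 ± 177 CPM with ginkgetin (log2 fold change 1.06, adjusted p = 0.140, and 0.0202 with the block). The member that fell was the costimulatory gene Cd86, with 230.1, 196 and 268 CPM in the vehicle libraries and 94, 83.2 and 116 CPM in the ginkgetin libraries (log2 fold change -1.22, SE 0.24, adjusted p = 0.0403). Tnf was measured at 9.46, 20.0 and 59.8 CPM in the vehicle libraries and 32.7, 23.8 and 14.8 CPM in the ginkgetin libraries (log2 fold change -0.55, adjusted p = 0.662). The groups overlapped, the highest and the lowest value were both vehicle libraries, and the direction turned without vehicle replicate 3. Rela, which encodes the NF-kB subunit p65, was measured at 43.2, 31.4 and 46.1 CPM in the vehicle libraries and 77.6, 87.2 and 57.1 CPM in the ginkgetin libraries (log2 fold change 0.82, adjusted p = 0.107), with no overlap. Il6 had 7.96 ± 4.31 CPM with vehicle and 24 ± 15.7 CPM with ginkgetin (log2 fold change 1.72, adjusted p = 0.106) and was called higher with the block (adjusted p = 0.0107), as was Il1b.

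Of 26 tested genes of the chemokine, cytokine and NF-kB list, 2 fell (Ccl9 and Il18) and none rose, beside 2.69% of all genes called lower, and the block called 4 higher and 3 lower, beside 5.8% and 8.06%. The median was -0.25, or 0.13 without a scaling factor, where 1 was called higher and 2 lower. Il18, the interleukin-18 gene, was measured at 219, 177 and 123 CPM in the vehicle libraries and 45, 35.7 and 32.8 CPM in the ginkgetin libraries (log2 fold change -2.22, SE 0.30, adjusted p = 0.0249). Cd14, a co-receptor gene for lipopolysaccharide, had 289 ± 115 CPM with vehicle and 117 ± 16.1 CPM with ginkgetin (log2 fold change -1.31, adjusted p = 0.0583) and was called lower with the block (adjusted p = 0.00452).

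Interferon-stimulated genes lay mostly below the median gene. Of 20 tested, 3 fell, none rose and 17 were not called, against 2.69% of all genes called lower. The median was -0.68, or -0.27 without a scaling factor, where 1 was called higher and none lower. With scaling 18 of 20 estimates were below 0. The block called 5 lower, against 8.06% of all genes. With the thinned cells 8 were tested and none was called, with a median of -0.60. Isg15, which encodes a ubiquitin-like protein, was measured at 154, 161 and 129 CPM in the vehicle libraries and 77.6, 31.7 and 48.1 CPM in the ginkgetin libraries (log2 fold change -1.51, SE 0.32, adjusted p = 0.0434). Oas1a, an oligoadenylate synthetase gene, was measured at 58, 64.3 and 72 CPM in the vehicle libraries and 28.6, 27.7 and 16.2 CPM in the ginkgetin libraries (log2 fold change -1.56, SE 0.30, adjusted p = 0.0394). Bst2, the tetherin gene, was measured at 935, 985 and 782 CPM in the vehicle libraries and 405, 424 and 439.9 CPM in the ginkgetin libraries (log2 fold change -1.09, SE 0.22, adjusted p = 0.0424). None of the 3 overlapped between the groups.

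Promoters were at hand for 16 genes of the interferon list, and 9 of them held the interferon response motif in the 250 bases before the start, among them all 3 called members, against 3.46% of all genes. The first match in each called member is shown with the motif in capitals. They lie on the minus strand, at chr4:156200877-156200906 (Isg15), chr5:120907526-120907555 (Oas1a) and chr8:71537583-71537612 (Bst2), and start 78, 20 and 130 bases before the start in the RefSeq table. All 3 promoters hold a further match that overlaps the one shown.
Isg15: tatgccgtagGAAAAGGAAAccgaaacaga
Oas1a: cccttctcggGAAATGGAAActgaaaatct
Bst2: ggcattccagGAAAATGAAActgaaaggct

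Of 12 tested genes of the MHC class II list, 1 fell, the costimulatory gene Cd86, and no MHC gene itself was called. Of all genes 2.69% were called lower, and without a scaling factor no member was. H2-Ab1 was measured at 5481, 4631 and 3834 CPM in the vehicle libraries and 5509, 1994 and 2037 CPM in the ginkgetin libraries (log2 fold change -0.55, adjusted p = 0.468), with ginkgetin replicate 1 above every vehicle library and the other ginkgetin libraries below. H2-DMa, which helps to load peptides, had 674 ± 239 CPM with vehicle and 313 ± 173 CPM with ginkgetin (log2 fold change -1.11, adjusted p = 0.148) and was called lower with the block (adjusted p = 0.00413). Its partner H2-DMb1 had 552 ± 147 CPM with vehicle and 312 ± 123 CPM with ginkgetin (log2 fold change -0.83, adjusted p = 0.164).

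With the thinned cells the calls of the other lists were few. The liver X receptor list had 1 member called lower, and the lineage factors and the immediate early list had 1 each called higher. The lists of the lysosome, scavenging, iron, cholesterol synthesis, MHC class II, chemokines, M1, M2, NRF2, cell cycle and endothelial markers had none, and the cholesterol synthesis list had no member tested.

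**Figure D4:**
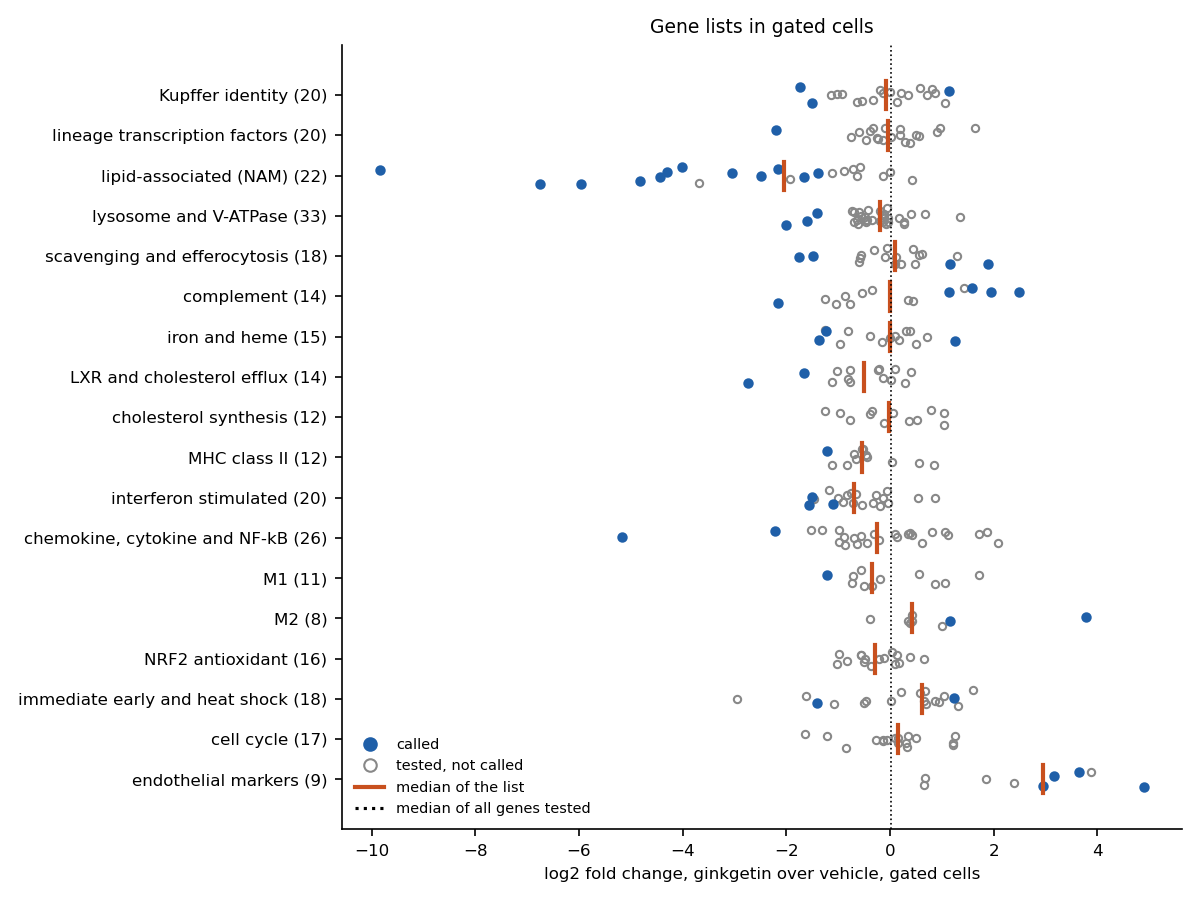
Log2 fold change, ginkgetin over vehicle, of each tested member of 18 gene lists in gated cells, with the number tested in brackets. Filled points were called, orange bars are list medians and the dotted line is the median of all genes. The lipid-associated list has a median of -2.04 and the endothelial list 2.95, and the other medians lie between -0.68 and 0.61. Without a scaling factor the median of all genes moves by 0.43, and only the medians of the lipid-associated, LXR, MHC class II and interferon lists then lie below 0.

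Rises were ranked among called genes outside the rule and marker lists, with no overlap and at least 50 CPM in the higher group. The 8 largest were those of Cyp26b1, Snhg9, Igfbp4, Zcchc24, C2, Aatk, Ets1 and Sgpp1. Cyp26b1, a retinoic acid hydroxylase gene, was measured at 2.37, 2.86 and 0.996 CPM in the vehicle libraries and 12.3, 131 and 18.1 CPM in the ginkgetin libraries (log2 fold change 4.70, SE 1.03, adjusted p = 0.0451). Snhg9, a non-coding gene, was measured at 6.51, 11.4 and 8.63 CPM in the vehicle libraries and 45, 151 and 28.6 CPM in the ginkgetin libraries (log2 fold change 3.01, SE 0.65, adjusted p = 0.0451). Igfbp4, which encodes a binding protein of insulin-like growth factors, was measured at 11.8, 28.6 and 8.96 CPM in the vehicle libraries and 73.6, 174 and 49.99 CPM in the ginkgetin libraries (log2 fold change 2.65, SE 0.60, adjusted p = 0.0483). Ets1, a transcription factor gene, was measured at 11.8, 11.4 and 14.6 CPM in the vehicle libraries and 73.6, 111 and 33.8 CPM in the ginkgetin libraries (log2 fold change 2.39, SE 0.45, adjusted p = 0.0393). Zcchc24, a zinc finger gene, was measured at 10.6, 12.9 and 9.96 CPM in the vehicle libraries and 36.8, 71.3 and 85.2 CPM in the ginkgetin libraries (log2 fold change 2.61, SE 0.35, adjusted p = 0.0249). Aatk, a kinase gene, was measured at 7.69, 11.4 and 12.3 CPM in the vehicle libraries and 20.4, 75.3 and 72.4 CPM in the ginkgetin libraries (log2 fold change 2.47, SE 0.46, adjusted p = 0.0393). Sgpp1, a sphingosine-1-phosphate phosphatase gene, was measured at 40.2, 35.7 and 23.9 CPM in the vehicle libraries and 123, 198 and 134 CPM in the ginkgetin libraries (log2 fold change 2.19, SE 0.30, adjusted p = 0.0249). Of the 8 genes, Cyp26b1, Snhg9, Igfbp4, Ets1, Aatk and Sgpp1 had their highest value in ginkgetin replicate 2. Without that library the log2 fold change was 3.04 for Cyp26b1, 2.01 for Snhg9 and 1.95 for Igfbp4. The log2 fold change of Cyp26b1 was 4.10 without vehicle replicate 3. Cyp26b1, Snhg9, Igfbp4, Aatk and Ets1 were called in none of the 6 fits that leave out a library. Zcchc24 was called in 2 of these fits, and C2 and Sgpp1 in 1 each. Ginkgetin replicate 2 was also the library with the highest endothelial marker sum. Of 9 endothelial markers tested, 4 rose (Clec4g, Egfl7, Bmp2 and Ehd3) and none fell, against 2.14% of all genes called higher, with a median of 2.95. The block called 7 higher, against 5.8% of all genes, the fit without a scaling factor 8, and the part of endothelial RNA in the rises was not tested. Of the T cell markers only Lck could be tested, and it rose (log2 fold change 2.52, adjusted p = 0.0486, and 0.0118 with the block). Among markers of other cells the block also called 1 of 3 tested stellate cell markers higher (Dcn) and 1 of 9 tested hepatocyte markers lower (Fabp1).

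Other lists gave few calls. None of 16 NRF2 and antioxidant genes was called, and 1 was called higher without a scaling factor. The lowest p-values belonged to G6pdx (log2 fold change -0.98, adjusted p = 0.0645), Prdx1 (log2 fold change -1.02, adjusted p = 0.0853) and Sod2 (log2 fold change -0.83, adjusted p = 0.154). None of 17 cell cycle genes was called. The lowest p-values belonged to Birc5 (log2 fold change -1.21, adjusted p = 0.145), Mcm2 (log2 fold change 1.21, adjusted p = 0.166) and Mcm6 (log2 fold change 1.22, adjusted p = 0.182), and the block called Birc5 lower and Mcm6 higher. Of 18 immediate early and heat shock genes, which respond to cell handling, 1 rose (Klf2) and 1 fell (Hsp90aa1), beside 2.14% and 2.69% of all genes. With the block, which called 5.8% of all genes higher and 8.06% lower, 5 rose and 4 fell. Without a scaling factor 1 was called higher and none lower. Their sum without TMM scaling was 2831 to 6711 CPM with vehicle and 6189 to 10529 CPM with ginkgetin, and its part in the results was not tested.

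Lacking cells were compared between treatments in the same way, to set the change in gated cells beside that in the cells where no UMI of Timd4, Marco or Cd163 was seen. Their median UMIs were 9833, 7750 and 17744 in the vehicle libraries and 2201, 1599 and 1252 in the ginkgetin libraries, and in ginkgetin replicate 3 that is well below the gated median of 2640. With cells thinned to 1000 UMIs the ginkgetin libraries held 25, 54 and 120 lacking cells. Whether lacking cells of low depth carry the 3 receptors was not tested. Of 8593 genes tested 68 (0.791%) were called, 23 (0.268%) higher and 45 (0.524%) lower, and the ginkgetin libraries held only 13, 30 and 68 lacking cells. Outside the genes of the rule 8585 were tested, with 22 called higher and 45 lower. With the replicate block 712 of 8593 genes were called. The count was 516 of 2659 without vehicle replicate 3 and 4 of 2720 without vehicle replicate 1. None was called without vehicle replicate 2 or without any 1 of the ginkgetin libraries. There 402 of 2737, 2061 of 10327, 1567 of 10210 and 1295 of 9866 tested genes had an unadjusted p under 0.05. The lipid-associated list had 11 of 22 members called lower there. Trem2 had 1423 ± 217 CPM with vehicle and 96.5 ± 23.4 CPM with ginkgetin (log2 fold change -3.89, SE 0.34, adjusted p = 0.00203), and C6 had 86.4 ± 14.5 CPM with vehicle and 481 ± 75 CPM with ginkgetin (log2 fold change 2.48, SE 0.30, adjusted p = 0.0132). The difference between the change in gated and that in lacking cells was tested with each library as a block. Of 9107 genes 57 (0.626%) were called. DESeq2 called 10, limma-voom 29, and edgeR without the block 0 (271 at an unadjusted p under 0.05). Without ginkgetin replicate 3 the count was 17. For Trem2 the log2 change in gated cells minus that in lacking cells was -0.74, SE 0.39, and it was not called. Of the other named genes 7 were called, Mmp12, C6, Cd9, Fabp5, Spp1, Itgam and C2. Mmp12 changed by -5.96 in gated and -3.03 in lacking cells on the log2 scale (difference -2.73, SE 0.43), and C6 by 1.13 and 2.48 (difference -1.44, SE 0.19). Their calls were lost without the block (adjusted p = 0.99998 for both) and held under the other alternatives run, among them DESeq2 (adjusted p = 8.30e-07 and 0.00100) and the omission of ginkgetin replicate 3 (adjusted p = 6.08e-05 and 6.27e-04). The difference was -2.29 for Cd9, -3.004 for Fabp5, 2.63 for Spp1, -1.98 for Itgam and -2.79 for C2, and each of these calls was lost under further alternatives. Without ginkgetin replicate 3 only Spp1 of the 5 stayed called, and Fabp5 turned to 3.21 and Itgam to 0.22. The fit used 1 dispersion trend for every gene, with no gene-specific spread, so its errors are small. The leading genes of this comparison were Saa3, Fn1, Prg4, Alox15 and Slpi, and part of their counts came from very few cells. In vehicle replicate 1, 1 gated cell held 1261 of 1262 gated UMIs of Saa3, Prg4 and Alox15, and in ginkgetin replicate 3, 1 lacking cell held 418 UMIs. Without cells with 3 or more such UMIs 23 genes were called. The call of these 5 leading genes was lost without the block (adjusted p = 0.99998 for each), with DESeq2 (adjusted p from 0.144 for Fn1 to 0.999) and without ginkgetin replicate 3 (adjusted p from 0.761 for Fn1 to 1).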

How the data were processed

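Liver non-parenchymal cells of 3 vehicle and 3 ginkgetin libraries were profiled with the 10x Genomics Chromium system. The authors deposited 1 table of raw UMI counts per library, with genes in rows and cells in columns. The submitters' notes name the builds GRCm38 and mm10, and the counting tool is not given in the sources used here. The labels' extraction protocol describes bulk RNA kits, which goes against the droplet assay. The members and all gene lists were chosen with earlier results of these data known.

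Cells with fewer than 5000 genes and under 5% mitochondrial UMIs were kept. The study states a limit of 250 to 5000 UMIs, which was tried as an alternative. Scrublet, a doublet caller, marked 0.0166 to 0.165% of kept cells and did not work, so the 5% of cells with the highest scores were left out as an alternative. Counts of gated cells were summed per library (217526 to 3131090 UMIs in tested genes), filtered with filterByExpr, scaled by TMM (factors 0.825 to 1.31) and tested with edgeR 4.0.16 (quasi-likelihood, legacy estimate, R 4.3.3), with Benjamini-Hochberg adjusted p under 0.05 and a change over 2-fold as the call. DESeq2 1.42.0 and limma 3.58.1 served as alternatives. The difference between gated and lacking cells was fitted with the library as a block. Shares of cells were compared with exact permutation tests in Python 3.11.15 after thinning to 1000 UMIs. The code was tested on simulated counts. There the fit of gated cells recovered 3.08% of tested genes changed 2-fold, 44.3% of those changed 4-fold and 90.7% of those changed 8-fold. The fit of lacking cells recovered 0, 19 and 58.9% in the same order, and that of the difference 1.43, 1.54 and 20%. A gene that was not called may therefore have changed. Genes of the rule stayed in the fits and in their totals, and no test of them is given.

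Replicate numbers come from the labels. Same-numbered libraries deviated together from their group means (correlations 0.38, 0.33 and 0.74 over 8117 genes), so fits with the number as a block are given where they change a call. Vehicle replicate 2 correlated as well with ginkgetin replicate 1 (0.33), vehicle replicate 1 correlated with ginkgetin replicate 2 (0.26), and replicates 3 shared their gene set. Deviations within a group sum to 0, so a deviation shared by replicates 3 alone also gives positive values among replicates 1 and 2. The correlations thus do not show that replicates 1 and 2 are paired.

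Named genes were 23 chosen for their roles, the 8 largest rises and 8 largest falls among called genes that did not overlap and had at least 50 CPM in the higher group, the 3 members with the lowest p in each list and the 5 leading genes of the difference between gated and lacking cells. Libraries, cell filters, scaling, gene filters and the gate itself were varied. Intervals and limits of detection cover counting error only. RefSeq promoters (GRCm38.p6) were searched for 5 motifs. Results on a few genes of the lists are not reported here.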

Additional observations from a re-analysis of the deposited data

Results flagged for a closer look

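For 12 named genes the difference between the change in gated and that in lacking cells was called by edgeR with each library as a block. The 5 with the lowest p depend on the fit and on 1 library. For them the log2 change in gated minus that in lacking cells was -13.80 for Saa3, an acute phase gene, -9.92 for Fn1, the fibronectin gene, -15.95 for Prg4, the lubricin gene, -17.14 for Alox15, a lipoxygenase gene, and -8.24 for Slpi, a protease inhibitor gene. All 5 values rest on ginkgetin libraries at or near 0, depend on the prior count and are no measure of size. In the ginkgetin libraries Saa3 had 4, 2 and 0 UMIs in gated and 0, 0 and 173 in lacking cells, and Prg4 0, 0 and 1 in gated cells. Fn1 had 0, 1 and 17 in gated and 0, 1 and 330 in lacking cells, Slpi 1, 5 and 4 and 0, 2 and 98, and Alox15 0, 0 and 0 and 0, 0 and 142. Without the block none of the 5 was called (adjusted p = 0.99998 for each), nor with DESeq2 (adjusted p = 0.144 for Fn1, 0.509 for Prg4 and 0.999 for the others). Without ginkgetin replicate 3 none was called either, with an adjusted p of 0.761 for Fn1, 0.790 for Slpi and 1 for the other three. Limma-voom and edgeR's newer estimate called all 5. Of Saa3, Prg4 and Alox15 together, 1261 of 1262 gated UMIs of vehicle replicate 1 lay in 1 cell, 714 of 719 of vehicle replicate 2 in 4 cells, and all 418 lacking UMIs of ginkgetin replicate 3 in 1 cell. Without such cells Fn1 had an adjusted p of 0.987 and Slpi of 0.995, and Saa3, Prg4 and Alox15 could not be tested. What these cells are was not tested.

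For the other 7 genes the log2 change in gated minus that in lacking cells was -2.73 for Mmp12, -1.44 for C6, -2.29 for Cd9, -3.004 for Fabp5, 2.63 for Spp1, -1.98 for Itgam and -2.79 for C2, and without the block none was called (adjusted p = 0.99998 for each). Mmp12 and C6 stayed called under every other alternative run, with each library left out among them. Ginkgetin cells held 0, 1 and 35 gated and 0, 14 and 20 lacking UMIs of Mmp12, and 216, 182 and 1735 gated and 25, 28 and 99 lacking UMIs of C6. Spp1 lost its call with DESeq2 (adjusted p = 0.144), limma-voom (adjusted p = 0.111), the UMI limits and thinning. The calls of C2, Cd9, Fabp5 and Itgam were lost without ginkgetin replicate 3 (adjusted p = 0.638, 0.762, 0.427 and 1), and that of C2 also without vehicle replicate 1 (adjusted p = 0.0518) and without ginkgetin replicate 2 (adjusted p = 0.0746). Without the cells with Saa3, Prg4 and Alox15, Cd9, Fabp5 and Itgam were not called (adjusted p = 0.638, 0.848 and 0.999), and the difference of Fabp5 turned to 1.28 on the log2 scale.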

How the results depend on the processing

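Of 78 named genes with alternative values, the 40 called ones kept their direction in all 849 alternative values and missed the threshold in 278 of them, 73 of 610 outside the fits that leave out a library. For the 392 genes called in gated cells, the count was 1125 with the replicate block (391 of the 392 among them), 1168 with the barcode-set block (replicate 3 against the others), 651 with limma-voom, 206 without a gene filter, 649 without a scaling factor, 5 with 250 to 5000 UMIs per cell, where vehicle replicate 3 was left out with 7 cells, 51 with cells thinned to 2000 UMIs before the gate, which tests 1949 genes, 243 with at least 2 UMIs of Timd4, Marco and Cd163, and 0 to 198 with a library left out. The absence of a scaling factor, the newer estimate, the removal of shared barcodes and that of cells with Saa3, Prg4 and Alox15 were chosen after seeing the data.
For the 68 genes called in lacking cells it was 712 and 891 with these blocks, 564 with DESeq2, 106 with the newer quasi-likelihood estimate, 536 with replicates 1 and 2, 123 without a cell filter, 13 with thinning, and 0 to 516 with a library left out. For the 57 genes of the difference it was 0 without a block (271 at an unadjusted p under 0.05), 10 with DESeq2, 29 with limma-voom, 15 with replicates 1 and 2, 8 with the UMI limits, 5 with thinning, 23 without cells with Saa3, Prg4 and Alox15, and 17 to 74 with a library left out.
Directions turned in 10 named genes, none of them called. The log2 fold change of Spp1 became -0.066 with limma-voom and -0.028 without a cell filter. With the UMI limits Lpl became 0.087, Adgre1 0.045, Msr1 0.24, H2-Ab1 0.077, H2-DMb1 0.25 and Mcm6 -0.12. Without a scaling factor Adgre1 became 0.021 and Msr1 0.38, and with replicates 1 and 2 Adgre1 became 0.093 and Tnf 1.13. Msr1 became 0.013 without a cell filter, 0.63 with thinning and 0.017 with at least 2 UMIs of Timd4, Marco and Cd163. With a library left out Spp1 ranged from -0.76 to 0.91, Hmox1 from -0.090 to 0.29, Mertk from -0.18 to 0.27, Msr1 from -0.19 to 0.022 and Tnf from -0.92 to 0.57. Without thinning the share of gated cells with a UMI, ginkgetin minus vehicle, became -2.16 percentage points for H2-Ab1 and -0.351 for Slc40a1. The cause of these moves was not tested.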
